A study of Mus musculus with 4 samples.

Results

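The 8 genes described here, Nkx2-5, Gata4, Gata6, Tbx5, Tbx20, Hand1, Hand2 and Mef2c, encode transcription factors that build the vertebrate heart. They were taken as a named list and found by matching the Ensembl gene identifiers of the deposited table to mouse symbols, which gave all 8 of them among 28765 genes. RNA-seq had been done on 4 libraries from embryos of the mouse strain CD-1 at embryonic day (E) 9.5, 1 each of NTD spine, control spine, NTD brain and control brain, where NTD stands for neural tube defects. Embryos of the NTD libraries, labelled as folate deficient, came from mothers injected with 1.5 mg/kg of methotrexate (MTX), an inhibitor of folate metabolism, into the abdomen on E7.5. The labels repeat 1 protocol text for every library, including parents aged 7 to 8 weeks when supplied and more than 8 weeks on a diet low in folate, and it does not say whether control mothers had the diet or an injection. The number of embryos in a library, the place of the cut between brain and spine, and whether the heart was taken off are points that the sources used here do not give.

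The heart is the earliest working organ of the embryo. At this stage it is a looped tube that lies under the hindbrain, and it beats while the neural tube closes. NKX2-5 is a homeodomain protein, GATA4 and GATA6 are zinc finger proteins, TBX5 and TBX20 are T-box proteins, HAND1 and HAND2 are basic helix-loop-helix proteins and MEF2C is a MADS-box protein. They bind near one another at heart genes such as those of the contractile apparatus, and several of them bind each other. None of them is limited to heart muscle: GATA4 and GATA6 also serve gut and yolk sac endoderm, HAND1 and HAND2 lateral mesoderm, TBX5 the forelimb field and MEF2C endothelium, skeletal muscle and brain.

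The read totals recovered from the deposited values lay between 16272101 and 16911677, so depth was nearly equal in all 4 libraries. Levels are given in FPKM, fragments per kilobase of gene scaled to the library total. The length is that of all annotated exons of a gene together, 1719 bases for Nkx2-5, 11997 for Tbx20 and 15715 for Mef2c. Orders and shares between genes depend on this length, which can exceed that of the transcripts present. A fold is the ratio of a gene's reads per library total, with an exact 95% interval that covers counting error only. A gene is said to pass 2-fold when the ratio of (FPKM + 1) does, a stricter measure for low genes, and the comparison took in the 12940 genes whose mean reached 1 FPKM. All 8 members were among them. With 1 library per group no difference has a replicate check and no p-value is given. In whole tissue, fewer cells of a type and less RNA per cell cannot be told apart.

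Regional genes, picked from the neural tube list after their values were seen, mostly followed the labels. Otx2, of forebrain and midbrain, was at 0.457 FPKM in NTD spine, 2.21 FPKM in control spine, 28.7 FPKM in NTD brain and 27.1 FPKM in control brain. Hoxb9, of the posterior trunk, was at 52.9 FPKM in NTD spine, 47.5 FPKM in control spine, 4.17 FPKM in NTD brain and 0.0919 FPKM in control brain. Hoxb8, also of the trunk, was at 20.04 FPKM in NTD spine and 19.5 FPKM in control spine, and had 67 reads in NTD brain against 0 in control brain, at least 22.9-fold higher with a floor of 3 reads per library. NTD brain thus held more RNA of posterior genes than control brain did. All 4 libraries also held RNA of heart muscle. The summed level of 12 cardiomyocyte markers was 546.5 FPKM in NTD spine, 829.9 FPKM in control spine, 233.0 FPKM in NTD brain and 55.3 FPKM in control brain. Among these markers Nppa, which encodes the atrial natriuretic peptide, had 0 reads in control brain, and none was at 0 in the other 3 libraries. The members' summed level was 71.0 FPKM in NTD spine and 76.3 FPKM in control spine, against 14.5 FPKM in NTD brain and 8.06 FPKM in control brain.

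Sequences upstream of the RefSeq start are shown for 3 members with NTD against control folds above 1 in brain and below 1 in spine. For Tbx20 the spine interval held equality. RefSeq windows of GRCm38.p6 were matched for Nkx2-5, Tbx20, Hand2 and Mef2c, 4 of the 8 members; Tbx5, Gata4, Gata6 and Hand1 were not matched. Each run reads 5′ to 3′ in the direction of the gene and ends at, or in Nkx2-5 short of, the RefSeq transcript start. Capitals mark matches on either strand to the cores bound by the members' own families.
Nkx2-5: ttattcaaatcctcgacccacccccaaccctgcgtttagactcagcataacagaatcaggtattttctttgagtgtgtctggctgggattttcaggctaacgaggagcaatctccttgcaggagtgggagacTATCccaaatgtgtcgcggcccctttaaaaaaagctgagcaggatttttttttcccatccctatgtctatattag
Tbx20: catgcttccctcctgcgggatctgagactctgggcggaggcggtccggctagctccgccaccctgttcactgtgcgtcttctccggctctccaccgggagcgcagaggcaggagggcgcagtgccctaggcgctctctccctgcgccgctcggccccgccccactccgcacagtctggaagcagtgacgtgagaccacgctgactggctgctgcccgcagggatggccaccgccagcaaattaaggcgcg
Hand2: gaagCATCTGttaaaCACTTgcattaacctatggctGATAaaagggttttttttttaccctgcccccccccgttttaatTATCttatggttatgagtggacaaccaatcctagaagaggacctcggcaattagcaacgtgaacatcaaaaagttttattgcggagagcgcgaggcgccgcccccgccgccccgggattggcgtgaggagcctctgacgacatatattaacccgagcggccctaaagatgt
The Nkx2-5 run is chr17:26841609-26841815 on the minus strand, the Tbx20 run chr9:24774304-24774553 on the minus strand and the Hand2 run chr8:57320733-57320982 on the plus strand. The Nkx2-5 run lies inside the annotated span of the gene given below. The motifs searched were GATA, AAGTG (the NKX2 core), GGTGTGA (the T-box core), CATCTG (the E-box of HAND and TWIST proteins) and the MEF2 box. In the 250 bases before the start Hand2 held 4 matches (GATA 2 times, AAGTG and CATCTG once each), Nkx2-5 held 1 (GATA) and Tbx20 held 0, and no matches overlapped. Mef2c, with 3 RefSeq starts, held between 3 and 4 matches per start. For start 2 of these, the bases that follow were not found in a GENCODE transcript of the gene. Among 32851 such windows, GATA was found in 53.6%, AAGTG in 40.7%, CATCTG in 14.4%, GGTGTGA in 3.33% and the MEF2 box in 2.92%. The 3 windows shown held no match to either of the last 2 motifs. All 250 bases of the Hand2 window also lie in annotated exons of Hand2os1, a noncoding gene read from the other strand.

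Nkx2-5 (ENSMUSG00000015579, chromosome 17, 26838664 to 26845009, minus strand, GRCm38) is an early marker of heart progenitors and stays on in heart muscle. It was at 5.64 FPKM in NTD spine (161 reads), 8.22 FPKM in control spine (230 reads), 2.37 FPKM in NTD brain (67 reads) and 0.860 FPKM in control brain (25 reads). Both spine libraries lay above both brain libraries, and the libraries with defects lay between the control libraries. Nkx2-5 was 2.75-fold higher in NTD brain than in control brain (interval 1.72 to 4.55), and 1.46-fold lower in NTD spine than in control spine (1.19 to 1.79). It was the member with the lowest fold in spine.

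Gata4 (ENSMUSG00000021944, chromosome 14, 63198922 to 63271692, minus strand) is needed for the heart tube to fold and fuse at the midline. It was at 11.3 FPKM in NTD spine (730 reads), 8.75 FPKM in control spine (556 reads), 1.74 FPKM in NTD brain (112 reads) and 0.439 FPKM in control brain (29 reads). It was higher in the NTD library of each tissue, 3.97-fold in NTD brain over control brain (2.62 to 6.19) and 1.29-fold in NTD spine over control spine (1.15 to 1.44). The fold in brain was the highest among the 8 members.

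Gata6 (ENSMUSG00000005836, chromosome 18, 11052064 to 11085635, plus strand), a close relative that overlaps with Gata4 in heart and endoderm, ran beside it. It was at 7.40 FPKM in NTD spine (800 reads), 5.99 FPKM in control spine (634 reads), 1.02 FPKM in NTD brain (109 reads) and 0.327 FPKM in control brain (36 reads). Again the NTD library was the higher one in both tissues, by 3.11-fold in brain (2.12 to 4.67) and by 1.24-fold in spine (1.11 to 1.38). The noncoding 1010001N08Rik lies over the start of Gata6 on the other strand for 504 bases and stood at 1.65 FPKM in NTD spine, 1.58 FPKM in control spine, 0.160 FPKM in NTD brain and 0.0390 FPKM in control brain. The sources used here do not give the strand setting of the counting, so reads of both genes in the shared bases cannot be told apart.

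Tbx5 (ENSMUSG00000018263, chromosome 5, 119832668 to 119885219, plus strand) acts in the atria and the left ventricle and sets up the forelimb bud. It was at 4.93 FPKM in NTD spine (383 reads), 4.71 FPKM in control spine (358 reads), 0.623 FPKM in NTD brain (48 reads) and 0.266 FPKM in control brain (21 reads). The fold in brain was 2.35 (1.38 to 4.13), on the fewest reads of any member. In spine it was 1.05 with an interval that held equality (0.905 to 1.21).

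Tbx20 (ENSMUSG00000031965, chromosome 9, 24718138 to 24774303, minus strand) keeps chamber muscle growing and acts in the valves and in hindbrain motor neurons. It was at 2.19 FPKM in NTD spine (437 reads), 2.22 FPKM in control spine (434 reads), 0.587 FPKM in NTD brain (116 reads) and 0.389 FPKM in control brain (79 reads). NTD brain was 1.51-fold higher than control brain (1.12 to 2.03), while the spine libraries had a fold of 0.987 (0.862 to 1.13). The direction of that last value turned when libraries were rescaled to the same sum of FPKM (log2 ratio 0.03, against -0.01 as deposited) or by the median ratio (0.02).

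Hand1 (ENSMUSG00000037335, chromosome 11, 57828705 to 57832818, minus strand) acts in the outer curve of the left ventricle, in lateral mesoderm and in the placenta. It was at 25.6 FPKM in NTD spine (850 reads), 29.0 FPKM in control spine (942 reads), 3.47 FPKM in NTD brain (114 reads) and 2.46 FPKM in control brain (83 reads). Its level was the highest of the 8 members in every library. Against the control of the tissue, NTD brain was 1.41-fold higher (1.05 to 1.90) and NTD spine 1.13-fold lower (1.03 to 1.24). The spine difference, a log2 ratio of -0.17, became 0.01 when ratios were adjusted for GC content and gene length.

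Hand2 (ENSMUSG00000038193, chromosome 8, 57320983 to 57324633, plus strand) acts in the right ventricle, the outflow tract, the branchial arches, the limb bud and sympathetic neurons. It was at 11.5 FPKM in NTD spine (449 reads), 15.2 FPKM in control spine (580 reads), 2.81 FPKM in NTD brain (109 reads) and 1.94 FPKM in control brain (77 reads). The pattern was that of Hand1 with a wider step in spine: NTD brain was 1.45-fold higher (1.08 to 1.97) and NTD spine 1.32-fold lower (1.16 to 1.49). With GC content and length adjusted for, the log2 ratio in spine was -0.17 in place of -0.37. Hand2os1, which overlaps Hand2 on the other strand over 3251 bases, was at 0.680 FPKM in NTD spine, 0.852 FPKM in control spine, 0.227 FPKM in NTD brain and 0.285 FPKM in control brain. As with Gata6, reads of both genes in shared bases cannot be told apart.

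Mef2c (ENSMUSG00000005583, chromosome 13, 83504034 to 83667080, plus strand) drives muscle genes in the outflow part of the heart and is shared with endothelium and the nervous system. It was at 2.46 FPKM in NTD spine (643 reads), 2.24 FPKM in control spine (572 reads), 1.85 FPKM in NTD brain (478 reads) and 1.38 FPKM in control brain (368 reads). The 4 values lay closer together than those of any other member. The fold was 1.33 in brain (1.16 to 1.53) and 1.10 in spine, with an interval that held equality (0.983 to 1.24).

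**Figure D1:**
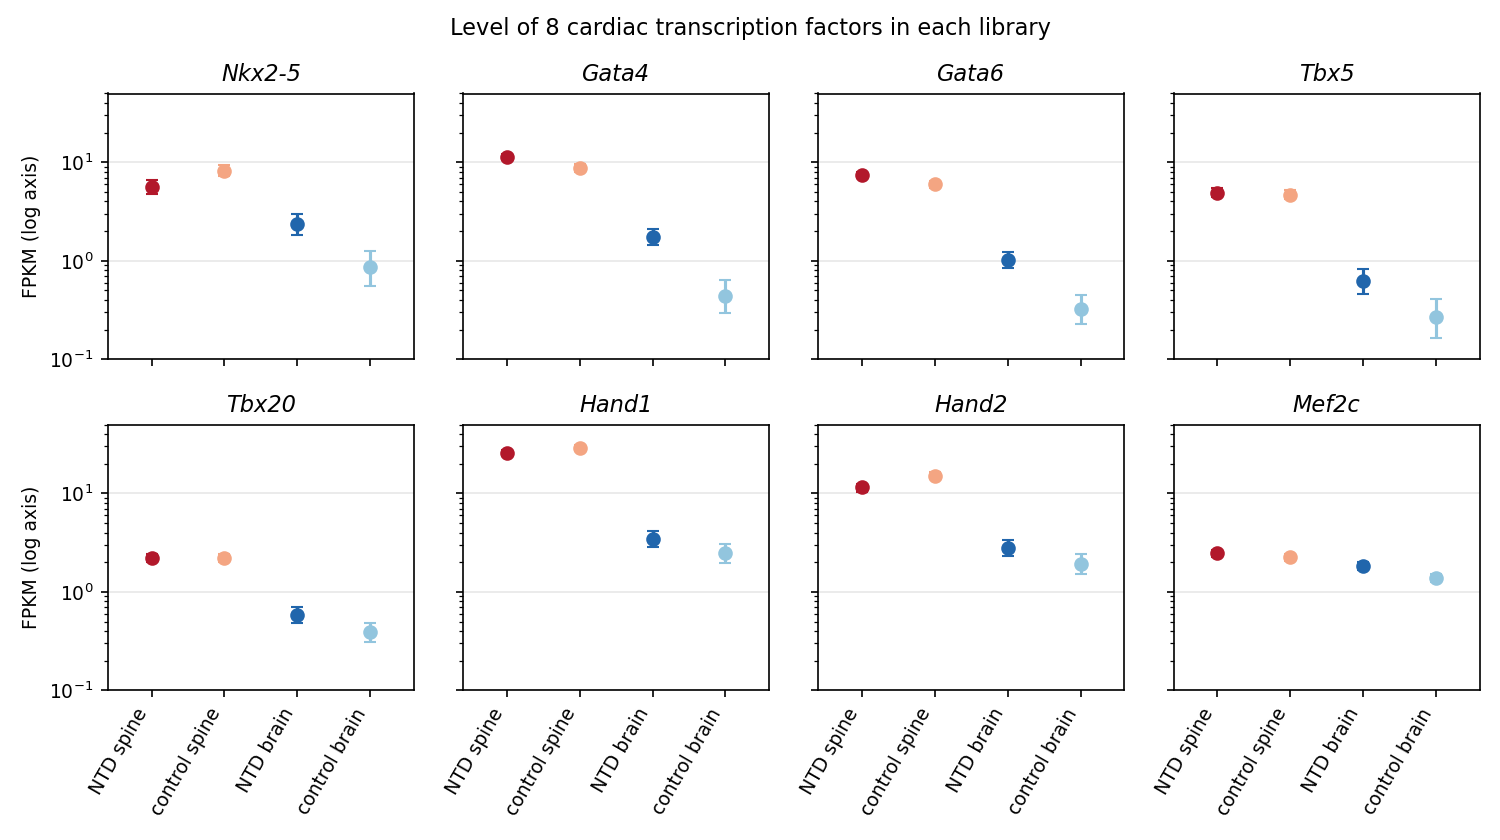
Level of each of the 8 genes in FPKM (log axis) in NTD spine, control spine, NTD brain and control brain, with 95% counting intervals as bars. Spine libraries sit above brain libraries in every panel, and the gap is small for Mef2c, at 2.46 FPKM in NTD spine and 1.38 FPKM in control brain.

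In brain, all 8 members were higher in the NTD library than in the control library, with folds from 1.33 (Mef2c) to 3.97 (Gata4). The interval lay above equality for all 8, where it did so for 16.1% of the genes with whole reads. On the scale of FPKM + 1 their median log2 ratio was 0.37, against -0.03 over all compared genes. None of the 8 passed 2-fold on that scale, which 0.804% of all genes did in this direction. The members nearest to it were Gata4 with a log2 ratio of 0.93, Nkx2-5 with 0.86 and Gata6 with 0.60. The low levels set this gap: Gata4 stood at 1.74 FPKM in NTD brain and 0.439 FPKM in control brain, where adding 1 shrinks a 3.97-fold difference. With a pseudocount of 0.1 in place of 1, Nkx2-5, Gata4 and Gata6 passed 2-fold. With ratios adjusted for GC content and length, Gata4 passed it alone at 1.07.

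In spine the members split. The interval lay above equality for 2 of 8, Gata4 and Gata6, where 17.2% of genes did so, and below it for 3 of 8, Nkx2-5, Hand1 and Hand2, where 26.6% did so. For Tbx5, Tbx20 and Mef2c it held equality. None passed 2-fold in either direction, which 0.649% of all compared genes did upward and 0.680% downward. Folds ran from 0.686 to 1.29 and the median log2 ratio was 0.02, against -0.04 over all genes. Shares of members on either side were thus near those of all genes, and the summed level was 1.07-fold lower in NTD spine than in control spine.

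**Figure D2:**
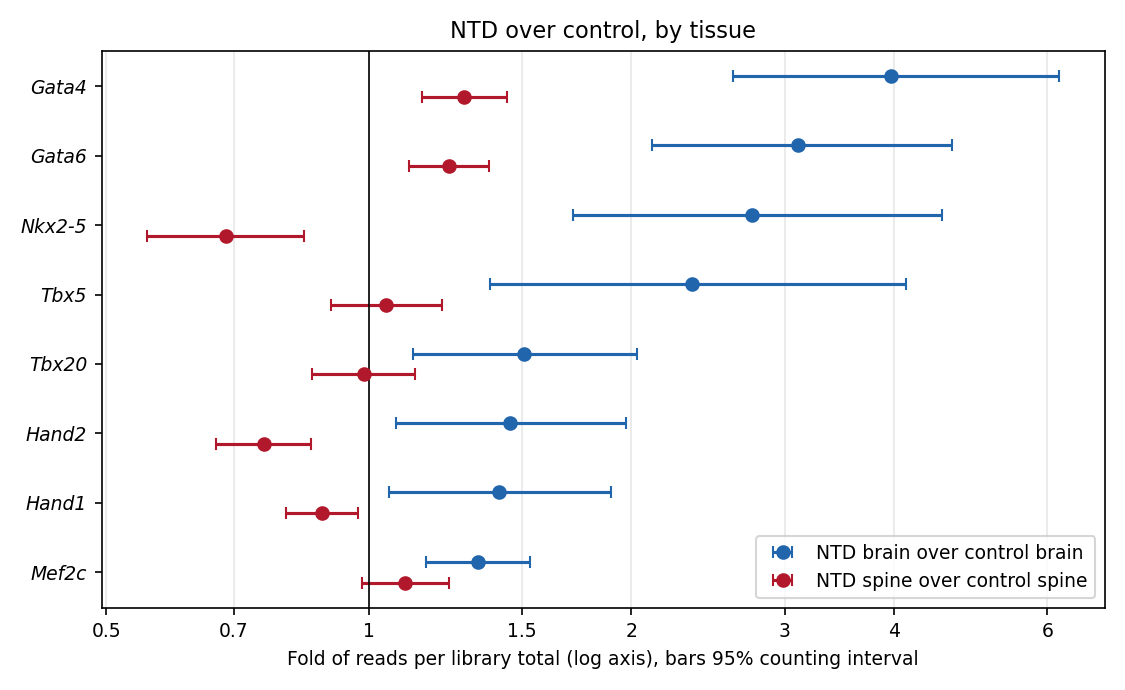
Fold of reads per library total (log axis) of NTD brain over control brain in blue and NTD spine over control spine in red, with 95% counting intervals. The folds in brain run from 1.33 to 3.97 and all lie right of equality, while those in spine lie on both sides of it.

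The brain fold was larger than the spine fold for each member. The ratio of the brain fold to the spine fold was 4.01 for Nkx2-5 (interval 2.43 to 6.62), 3.08 for Gata4 (2.02 to 4.71), 2.51 for Gata6 (1.70 to 3.72) and 2.24 for Tbx5 (1.31 to 3.81). For Hand2 it was 1.92 (1.40 to 2.63), for Hand1 1.60 (1.18 to 2.15), for Tbx20 1.53 (1.12 to 2.09) and for Mef2c 1.21 (1.02 to 1.45). The interval lay above equality for all 8, where it did so for 11.9% of genes with reads in every library. These intervals cover counting error alone and the difference was not tested between samples. Higher in NTD brain and lower in NTD spine were 4 of the 8, Nkx2-5, Tbx20, Hand1 and Hand2, where 16.8% of all compared genes were so. The largest ratio, that of Nkx2-5, combined a higher level in NTD brain with a lower one in NTD spine.

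Between the tissues, spine was higher than brain for all 8 members in the controls. Folds of control spine over control brain were 19.9 for Gata4 (13.7 to 30.03), 18.3 for Gata6 (13.1 to 26.4), 17.7 for Tbx5 (11.4 to 29.0) and 11.8 for Hand1 (9.42 to 14.9). They were 9.56 for Nkx2-5 (6.32 to 15.1), 7.83 for Hand2 (6.16 to 10.1), 5.71 for Tbx20 (4.48 to 7.35) and 1.62 for Mef2c (1.42 to 1.85). Mef2c was thus the least regional. Of the 8, 7 passed 2-fold, where 2.38% of all compared genes did so, and the interval lay above equality for 8, where 19.2% of genes did so. The filter uses the mean over the 4 libraries, and members low in brain, such as Tbx5 and Tbx20, reach it only through spine. Their tissue calls are thus not independent of the filter. Without it, 7 members and 425 of 28765 genes passed 2-fold.

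In the NTD libraries spine was again the higher tissue for all 8 members, with smaller folds. NTD spine over NTD brain gave 7.91 for Tbx5 (5.85 to 10.9), 7.40 for Hand1 (6.08 to 9.07), 7.28 for Gata6 (5.95 to 8.98) and 6.47 for Gata4 (5.29 to 7.96). It gave 4.09 for Hand2 (3.31 to 5.09), 3.74 for Tbx20 (3.04 to 4.63), 2.38 for Nkx2-5 (1.78 to 3.22) and 1.33 for Mef2c (1.18 to 1.51). Here 6 members passed 2-fold, against 2.13% of all genes, and 8 had an interval above equality, against 22.3%. The same limit of the filter holds, and without it 6 members and 357 of 28765 genes passed 2-fold. Nkx2-5, at a log2 ratio of 0.98 on the scale of FPKM + 1, was just short of 2-fold and passed it with libraries rescaled to the same sum. The tissue and the NTD comparisons share libraries, so their folds are not independent of each other.

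**Figure D3:**
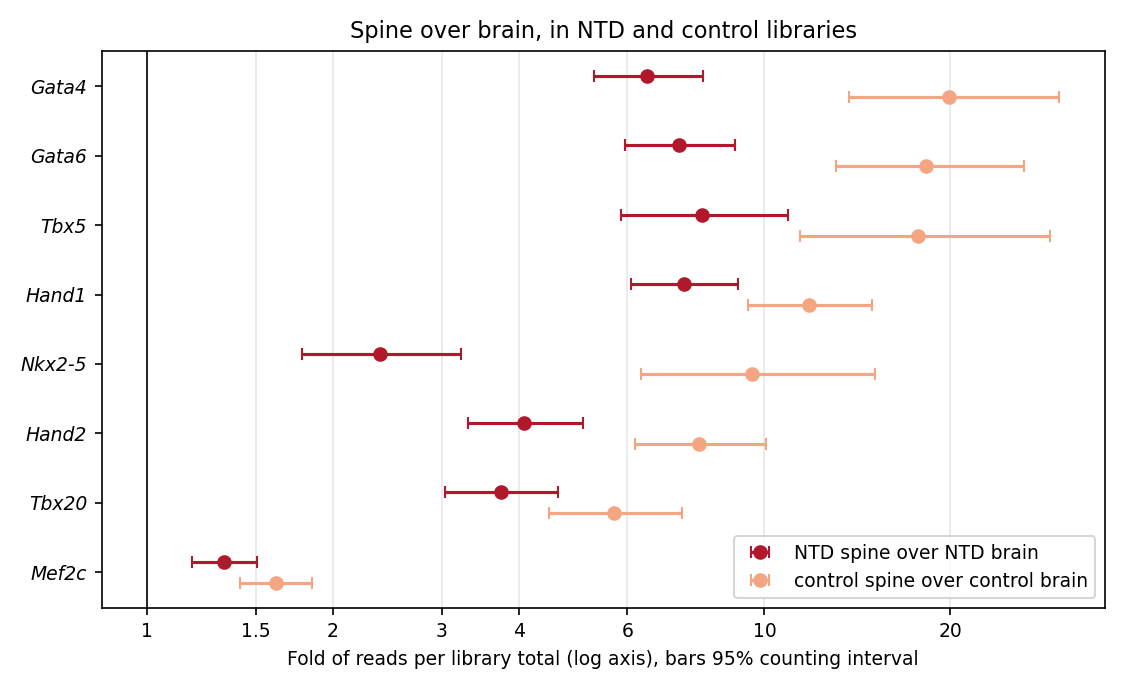
Fold of reads per library total (log axis) of NTD spine over NTD brain in dark red and of control spine over control brain in orange, with 95% counting intervals. Nkx2-5 has the widest gap on the log axis, at 2.38 in the NTD libraries and 9.56 in the controls.

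The order of the members by FPKM was partly the same in all libraries. Hand1 came top throughout and Hand2 second, although in both brain libraries the interval of their ratio held equality. In control spine Hand1 was 1.91-fold above Hand2 (1.72 to 2.12), and Hand2 was 1.73-fold above Gata4 (1.54 to 1.95). Gata4 and Nkx2-5 came next and did not differ beyond counting error, at 1.06-fold (0.911 to 1.25), and neither did Mef2c and Tbx20 at the low end, at 1.006-fold (0.887 to 1.14). In NTD spine Gata4 had drawn level with Hand2, which was 1.02-fold higher (0.906 to 1.15), and Nkx2-5 had dropped below Gata6. In NTD brain, no step between neighbours in the order Hand1, Hand2, Nkx2-5, Mef2c and Gata4 went beyond counting error, while Gata4 was 1.71-fold above Gata6 (1.30 to 2.25). In control brain, Mef2c came next after them, and Nkx2-5 was 1.96-fold above Gata4 (1.10 to 3.46). Among Gata4, Tbx20, Gata6 and Tbx5 at the low end, no step went beyond counting error. By reads, not scaled for length, Mef2c led in both brain libraries, with 478 in NTD brain and 368 in control brain.

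As shares of the summed level, Hand1 made up 36.1% in NTD spine and 38.0% in control spine, against 24.0% in NTD brain and 30.5% in control brain. Nkx2-5 made up 7.94% in NTD spine and 10.8% in control spine, and 16.4% in NTD brain against 10.7% in control brain. Gata4 made up 15.9% in NTD spine against 11.5% in control spine, and 12.0% in NTD brain against 5.45% in control brain. Mef2c was a small part in spine, 3.47% in NTD and 2.93% in control, and a larger one in brain, 12.8% in NTD and 17.2% in control. Brain and spine thus differed in the make-up of the set and not only in its sum.

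**Figure D4:**
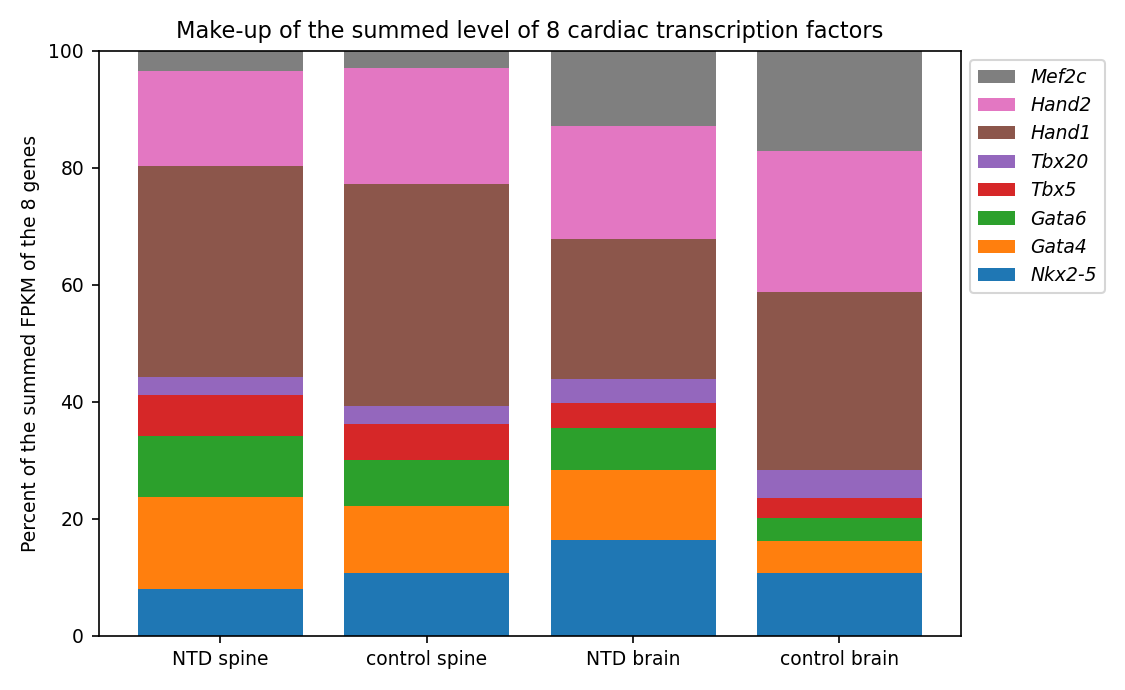
Percent of the summed FPKM of the 8 genes that each gene makes up, as stacked bars for NTD spine, control spine, NTD brain and control brain. Hand1 is the largest part in each bar, from 24.0% in NTD brain to 38.0% in control spine, and Mef2c is a larger part in the brain bars.

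Targets of these factors were described from a list of 24 genes of the contractile apparatus and other heart muscle products, of which 20 were compared. In NTD brain 14 of 20 were at least 2-fold higher than in control brain, where 0.804% of all compared genes were, and none was at least 2-fold lower. In all, 19 were higher and 1 was lower, with a median log2 ratio of 1.36. In NTD spine 17 of 20 were lower than in control spine, none by 2-fold, with a median of -0.50. The interval lay below equality for 14 of 20, where it did so for 26.6% of genes with whole reads. Cardiac actin (Actc1) was at 210.6 FPKM in NTD spine, 306.6 FPKM in control spine, 90.0 FPKM in NTD brain and 20.8 FPKM in control brain. Myl7, which encodes the atrial myosin light chain, had a fold of 4.06 in brain (3.45 to 4.80) and was 1.50-fold lower in spine (1.40 to 1.59). Acta2, which encodes smooth muscle actin and is also made in early heart muscle, was 2.60-fold higher in brain (2.34 to 2.88) and 1.27-fold lower in spine (1.21 to 1.33). Atp2a2, the calcium pump of heart and many other cells, hardly differed, with folds of 1.06 in brain and 1.12 in spine.

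Set beside the 12 cardiomyocyte markers, of which 11 were compared, the members took a range of positions. All 12 markers are also in the list of targets above, so they are not a separate set of genes. The markers differed in NTD brain with a median log2 ratio of 1.69, 10 of 11 passing 2-fold against 0.804% of all compared genes. In NTD spine 11 of 11 markers were lower, with a median of -0.60. In spine their folds ran from 0.546 to 0.963. The top value was that of Nppa, on 56 reads in NTD spine and 57 in control spine (0.654 to 1.42). The next highest was Myh6 at 0.716. Nkx2-5 (0.686) lay inside the range, and Hand2 (0.759) and Hand1 (0.884) did so only through Nppa. Gata4 (1.29), Gata6 (1.24), Tbx5 (1.05), Tbx20 (0.987) and Mef2c (1.10) lay above it. The intervals of Tbx5 (0.905 to 1.21) and Tbx20 (0.862 to 1.13) reached into it. The FPKM that NTD brain had above control brain, as a percent of the level in control spine, was 15.3% to 22.6% over the 11 markers, with a median of 20.4%. It was 20.7% for Mef2c, 18.3% for Nkx2-5, 14.9% for Gata4 and 11.5% for Gata6. For the others it was lower, at 8.89% for Tbx20, 7.60% for Tbx5, 5.79% for Hand2 and 3.48% for Hand1. Nkx2-5 therefore lay inside the range of the muscle markers on both measures. How far the amount of heart muscle in each library accounts for the members' differences was not tested.

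Markers of other cells that carry some of the members took several courses. Of 6 markers of the epicardium and septum transversum, 5 were compared, with medians of 0.14 in brain and 0.02 in spine, and the sum of the list was 7.93 FPKM in NTD brain and 3.72 FPKM in control brain, 2.13-fold higher. Aldh1a2, a retinoic acid synthesis enzyme, was their only one past 2-fold, at 46.8 FPKM in NTD spine, 34.0 FPKM in control spine, 4.34 FPKM in NTD brain and 0.522 FPKM in control brain. Like Gata4 and Gata6 it was higher in the NTD library of both tissues, and most of the rise in the brain sum came from it. None of 11 endothelium and endocardium markers passed 2-fold in either tissue, with medians of -0.06 in brain and 0.05 in spine, and their sum was 79.6 FPKM in NTD brain and 85.8 FPKM in control brain. Somite and skeletal muscle markers, 9 of 11 compared, had medians of 0.20 in brain and 0.14 in spine and a sum of 24.8 FPKM in NTD brain and 14.8 FPKM in control brain, 1.68-fold higher. Most of this rise came from Meox1, of the early somite, at 11.1 FPKM in NTD brain and 3.42 FPKM in control brain. It was the only gene of the list past 2-fold in brain. The interval in brain lay above equality for 3 of the 9, where it did so for 16.1% of genes with whole reads. The members' sum was 1.79-fold higher in the same comparison. Myod1 and Myf6, the 2 genes of the list below the filter, were at 0 in both brain libraries. The other genes of the list, Myf5 and Myog among them, had reads in both.

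The limb and lateral plate list, with 11 of 11 compared, had medians of 0.05 in brain and -0.05 in spine and no gene past 2-fold. Branchial arch markers, 10 of 11 compared, had medians of -0.24 in brain and -0.28 in spine, and their sum was 69.0 FPKM in NTD brain and 87.4 FPKM in control brain. Neural crest and sympathoadrenal markers, 8 of 11 compared, had medians of -0.03 in brain and -0.14 in spine. Hand2, which arches and crest share with the heart, was higher in NTD brain where the arch list was lower. Endoderm, liver and yolk sac markers, 10 of 14 compared, had a median of 0.04 in brain and -1.23 in spine, where 6 were at least 2-fold lower. Of the 10, 8 were lower in NTD spine and 2 higher, with a highest fold of 1.62. Gata4 and Gata6, known also from endoderm, were higher in NTD spine, where most genes of this list were lower. Afp, of yolk sac and liver, and Ttr had 0 reads in control brain, Apoa1 had 0 in NTD brain and Apoa2 had 0 in both.

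Trophoblast genes, 3 of 6 found compared, had medians of 0.02 and 0.01, with Tpbpa at 0 in NTD spine, NTD brain and control brain. Eye field genes, 5 of 9 compared, had medians of -0.11 and -0.26, and neural tube genes, 10 of 10 compared, -0.19 and -0.21, in brain and in spine. In the neural tube list Hoxb8 and Hoxb9 were at least 2-fold higher in NTD brain, beside the higher members, and Hes5, Otx2 and Tubb3 at least 2-fold lower in NTD spine. Primitive erythroid genes, 9 of 9 compared, had a median of 0.04 in brain and -0.76 in spine, so less blood RNA stood beside the split of the members in NTD spine. What part these contents have in the members' values was not tested.

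**Figure D5:**
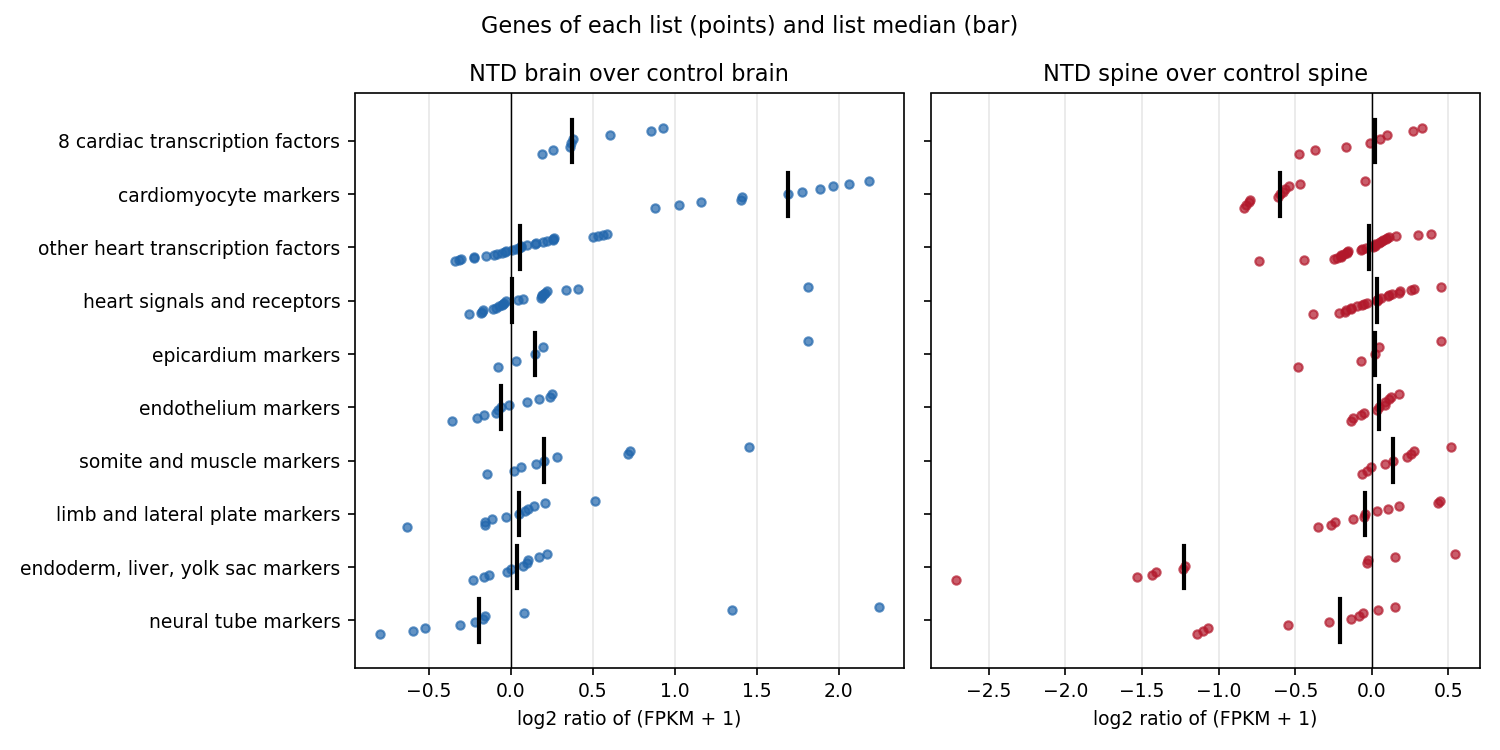
Log2 ratio of (FPKM + 1) for each compared gene (points) of a selection of the lists and the list median (bar), for NTD brain over control brain on the left and NTD spine over control spine on the right. The 8 factors have medians of 0.37 in brain and 0.02 in spine, and the cardiomyocyte markers 1.69 and -0.60.

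Most other regulators of the heart differed less between NTD and control libraries than the leading members did. Of a list of 31 further transcription factors and cofactors 28 were compared, with medians of 0.05 in brain and -0.02 in spine and none past 2-fold in either. In brain 17 of the 28 were higher and 11 lower. By reads their folds ran from 0.753 (Zfpm1) to 4.79 (Wt1, on 14 and 3 reads), a range that holds those of all 8 members. The next highest was Gata5 at 2.84, below Gata4 (3.97) and Gata6 (3.11). The most abundant genes of this list, Smad4, Srf, Irx3 and Hey1, had folds in brain from 0.847 (Irx3, 0.773 to 0.929) to 1.20 (Srf, 1.11 to 1.30). Among 27 signals and receptors, 22 were compared, with medians of 0.01 in brain and 0.03 in spine, and Aldh1a2 alone passed 2-fold. Vegfa, Bmpr1a and Fgfr1, the most abundant besides Aldh1a2, had folds between 0.924 and 1.03 in brain.

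Of 22 paralogs of the members 18 were compared, and, as with the members, none passed 2-fold between NTD and control in either tissue, with medians of 0.05 in brain and -0.01 in spine. Twist1, the relative of HAND proteins with the highest level, was at 72.4 FPKM in NTD spine, 74.7 FPKM in control spine, 51.1 FPKM in NTD brain and 52.2 FPKM in control brain. Mef2d had folds of 1.05 in brain (0.939 to 1.17) and 1.02 in spine (0.927 to 1.12), and Tbx2 was lower in both NTD libraries, at 0.785 (0.683 to 0.902) in brain and 0.701 (0.604 to 0.812) in spine. Gata5, the third GATA factor of heart and endoderm, was past 2-fold between the control tissues with Tbx4, Tbx6 and Tcf15. It was at 5.02 FPKM in NTD spine, 4.56 FPKM in control spine, 1.08 FPKM in NTD brain and 0.379 FPKM in control brain. Its fold was 2.84 in brain (1.69 to 4.92) and 1.10 in spine (0.923 to 1.31), beside 3.11 and 1.24 for Gata6. Nkx2-1 and Nkx2-9, relatives of Nkx2-5 in the forebrain and the ventral neural tube, were the 2 that were at least 2-fold lower in control spine than in control brain.

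The genes most like each member were sought by the distance between their levels over the 4 libraries, on a centred log2 scale, among the 11198 other protein-coding genes that reached a mean of 1 FPKM. Nearest to Nkx2-5 were Acta2 (0.146), Asb2 (0.164) and Myom1 (0.173), the last of which encodes a protein of the sarcomere. Nearest to Tbx20 were Tcf21 (0.094), a transcription factor of the epicardium, Fam198b (0.118) and Alpk3 (0.158). Near to Gata4 were Meox1 (0.176) and Nkx1-2 (0.262), and nearest to Gata6 Nkx1-2 (0.133), Meox1 (0.278) and Gata4 itself (0.278). Meox1 and Nkx1-2 were thus near to both GATA members, and Acta2 and Myom1, genes of muscle, near to Nkx2-5.

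Nearest to Tbx5 were Gata6 (0.331), Prdm6 (0.338) and Ifitm1 (0.364). Nearest to Hand1 were Rspo4 (0.249), Myh3 (0.310) and Prdm6 (0.361), and nearest to Hand2 Smoc2 (0.214), Nkx3-2 (0.344) and Fsd2 (0.345). Mef2c had Hbegf (0.071), Gpr182 (0.074) and Rbm41 (0.075), closer than any gene came to another member. Among the 8 themselves, Gata4 and Gata6 were the closest pair and Gata4 and Mef2c the farthest apart (2.98), while Hand1 and Hand2 were 0.747 apart. With 4 libraries such distances describe these samples only.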

How the data were processed

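The authors deposited 1 table of FPKM for 28765 genes in 4 libraries. Reads had been aligned with HISAT2 2.0.1 to mm10, per the submitters' processing notes; the counting program, its annotation, strand setting and filters are not stated in those notes or labels. Samples were grouped by title. Identifiers were matched to GENCODE M21 (GRCm38): 28698 matched and 67 did not. Multiplied by union exon length, the FPKM of a library were whole multiples of a single step, from which its reads and total followed; 28298 genes (98.6%) were whole in all 4 libraries within 0.01 reads, all 8 members among them. At these totals, 1 FPKM stands for 16.3 to 16.9 reads per kilobase of gene.

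Folds are ratios of reads per library total with exact conditional binomial (Clopper-Pearson) intervals at 95%. A ratio of 2 folds has a delta-method interval. PCR reads are not independent molecules, so intervals cover counting error only. Calls used log2 ratios of (FPKM + 1) at 2-fold among the 12940 genes whose mean reached 1 FPKM; shares with intervals off equality refer to the 12721 of these with whole reads. No test between groups was run, since each has 1 library. The steps were tested on simulated reads.

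The members, 4 pathway lists, 12 marker lists and the naming rule were chosen with earlier results of these data known. The rule names all members, up to 4 genes per list by mean FPKM, genes past 2-fold where 5 or fewer, the 3 nearest genes per member (pseudocount 0.1) and genes over a member on the other strand. The text uses part of these (some genes are not reported here), and genes outside it were chosen after their values were seen (Nppa, Apoa1, Myod1, Myf6, Afp, Ttr, Apoa2, Tpbpa). Promoter sequences are from RefSeq (GRCm38.p6). Protein sequences were not used here. Python 3.11.15, numpy 2.4.6, pandas 2.3.3, scipy 1.17.1 and matplotlib 3.10.9 were used.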

Additional observations from a re-analysis of the deposited data

Results flagged for a closer look

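Among the 8 members, 4 differed in opposite directions between NTD and control libraries in brain and in spine, higher in NTD brain and lower in NTD spine, where 16.8% of all compared genes were so. The brain log2 ratio of reads minus the spine log2 ratio was 2.004 for Nkx2-5, 0.94 for Hand2, 0.67 for Hand1 and 0.61 for Tbx20. For Nkx2-5, Hand1 and Hand2 the counting intervals excluded equality in each tissue, and for Tbx20 the spine interval held it. The spine log2 ratio of Tbx20, -0.01 as reported, was 0.03 with libraries rescaled to the same sum and 0.02 by the median ratio, and that of Hand1, -0.17 as reported, was 0.01 after adjustment for GC content and length. The difference between the tissues was not tested, since each group has 1 library.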

How the results depend on the processing

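No paired analysis was possible because the groups share only 1 replicate number, with 1 library each. A fit of NTD against control with tissue as a block was not run, since it would take brain and spine as replicates of a single effect. The direction of all 8 members in NTD brain against control brain, and of all 8 in both comparisons of spine against brain, was the same under each alternative that gave a value. The number of members at least 2-fold higher in NTD brain than in control brain, 0 as reported, was 3 with a pseudocount of 0.1, 1 after adjustment for GC content and length and 3 at a threshold of 1.5-fold. In NTD spine against NTD brain 6 became 3 when a mean of 5 FPKM was required, where only 3 members were left, and 3 at a threshold of 4-fold. In control spine against control brain 7 became 3 when a mean of 5 FPKM was required, again with 3 members left. Of 204 single log2 ratios under the alternatives, 31 moved by more than the distance from the middle of their counting interval to its end. Of these, 29 did so with another pseudocount, and the ratios of Hand1 and Hand2 in spine did so with the adjustment for GC content and length. Reads of 21 to 83 for 7 of the members in control brain limit their folds, and nothing here measures the spread between embryos.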

Other observations

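A few further heart regulators, chosen after their values were seen, are given as values. Irx4, a transcription factor of the ventricles, was at 1.64 FPKM in NTD spine, 3.40 FPKM in control spine, 1.96 FPKM in NTD brain and 1.47 FPKM in control brain, and was 2.07-fold lower in NTD spine by reads. Bmp10, a growth factor of trabecular heart muscle, had 79 reads in NTD spine, 110 in control spine, 16 in NTD brain and 2 in control brain. Its fold in brain was 8.21 with a counting interval of 1.93 to 73.6. Wt1, of the epicardium and the urogenital ridge, had 224 reads in NTD spine and 215 in control spine, against 14 in NTD brain and 3 in control brain. Prdm1 was higher in both NTD libraries, 2.08-fold in brain (1.57 to 2.79) and 1.45-fold in spine (1.20 to 1.76), by reads.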
